A study of Mus musculus with 30 samples.

Results

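The replication-dependent histone genes were taken as every gene row of the table whose symbol starts with Hist1h, Hist2h, Hist3h or Hist4h: 64 of 20541 gene rows. Hist1h2bq and Hist1h2br share 1 set of coordinates and 1 set of values and were counted once, which leaves 63 genes, and all 63 had enough signal to be tested. They divide into 6 genes of the linker histone H1, 16 of H2A, 18 of H2B, 11 of H3 and 12 of H4. By position on mm10, 52 counted genes of the HIST1 cluster lie on chromosome 13, in a first stretch of 20 genes (21715713-22043658), a second of 31 (23531044-23934913) and a lone H2A gene, Hist1h2al, at 51200084-51203066. The 7 HIST2 genes lie on chromosome 3 (96219916-96270192), the 3 HIST3 genes on chromosome 11 (58948911-58955192) and the single HIST4 gene, Hist4h4, on chromosome 6 (136803993-136804431).

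The cells were mouse embryonic stem cells of the line labelled dTKO, with the genotype Suv39h1fl/fl; Suv39h2-/-; Setdb1fl/fl, kept in LIF and serum on gelatin. Auxin (100 µg/ml) with dTAG13 (0.5 µM), compounds that degrade proteins carrying matching degron tags, appear in the labels of all groups, and the groups are the 0, 3, 12, 24 and 48 h times, with 0 h as the baseline. The study asks how transcription responds when H3K9 methyltransferases are lost. Each time has 3 libraries, called biological repeats in the labels, of RNA labelled for 10 min with 4-thiouridine (TT-seq), so the values describe recent synthesis and not the amount of histone mRNA present.

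Replication-dependent histone genes supply the histones that package newly copied DNA, and in most cells they are transcribed mainly in S phase. They have no introns as a rule, and their mRNAs end not in a poly(A) tail but after a short hairpin, the stem-loop, which is bound by the protein Slbp. Transcription takes place in nuclear histone locus bodies, organised by Npat, which cyclin E kinase activates.

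The family label was checked against sequence. A stem-loop (the letters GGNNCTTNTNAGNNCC with paired arms) was searched in the GENCODE M21 transcripts on the sense strand. It was found in 41 of the 46 genes whose transcript runs past the stop codon by at least the length of the motif. It started 21 to 54 bases after the stop codon (median 31). Among all 55341 gene symbols of that annotation the letters with paired arms occur in 61, or 0.110%, and these 61 include the 41. The remaining 17 genes have no such end annotated. The 5 that extend without a match are Hist1h1a, Hist1h2bc, Hist1h2bq, Hist2h2be and Hist2h3b, which were named after this search was seen. Whether each of these transcripts reaches the usual place of the loop was not checked. The forms that carry most genes are shown here with the 4-base loop in capitals. The arms set H4 genes apart, whereas H1, H2A, H2B and H3 genes share the arms ggctct and agagcc.
Hist1h1d, Hist1h2bh and 20 others: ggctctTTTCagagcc
Hist1h1t, Hist1h3c and 4 others: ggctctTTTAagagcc
Hist1h4m, Hist4h4 and 4 other H4 genes: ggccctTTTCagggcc
Hist1h4i and Hist2h4: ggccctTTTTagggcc
All 11 H4 genes with an annotated end had the loop, as did all 8 such H2A genes, 4 of 5 H1 genes, 8 of 9 H3 genes and 10 of 13 H2B genes.

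Promoters were read from the RefSeq table (GRCm38.p6; 250 bases before to 50 after the start), which gave 55 distinct promoters for these genes. The octamer ATTTGCAT, the Oct factor site known from H2B promoters, was present on either strand in 7 of 14 H2A and 6 of 15 H2B promoters and in none of the H1, H3 and H4 promoters, against 1.74% of all 32817 promoters. CCAAT was present in 47 of 55 (85.5%, against 37.4% of all promoters): in every H1, H2A, H2B and H3 promoter, but in 3 of 11 H4 promoters. TATAAA was present in 33 (60.0%, against 13.6%), and the H1 element AAACACA in 5 of 6 H1 promoters, 2 of 14 H2A and 2 of 15 H2B promoters and no H3 or H4 promoter (7.19% of all). None of these motifs contains another. The promoters below are those of genes whose values are followed in the text, 5′ to 3′ on the gene's strand, with matches to these motifs on either strand in capitals.
Hist1h1t, chr13:23695561-23695860, plus strand: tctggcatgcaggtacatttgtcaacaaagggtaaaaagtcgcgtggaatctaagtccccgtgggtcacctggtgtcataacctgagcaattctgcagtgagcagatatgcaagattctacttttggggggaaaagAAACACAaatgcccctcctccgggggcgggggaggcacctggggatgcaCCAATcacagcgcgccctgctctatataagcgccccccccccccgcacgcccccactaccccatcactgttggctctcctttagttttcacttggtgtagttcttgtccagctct
Hist1h1d, chr13:23554782-23555081, plus strand: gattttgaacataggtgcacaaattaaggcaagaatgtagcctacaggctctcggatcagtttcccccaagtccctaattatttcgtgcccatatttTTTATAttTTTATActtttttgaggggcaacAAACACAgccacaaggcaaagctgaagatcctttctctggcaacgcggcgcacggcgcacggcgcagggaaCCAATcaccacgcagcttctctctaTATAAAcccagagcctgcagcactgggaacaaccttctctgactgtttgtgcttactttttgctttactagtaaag
Hist1h2ba, chr13:23934107-23934406, minus strand: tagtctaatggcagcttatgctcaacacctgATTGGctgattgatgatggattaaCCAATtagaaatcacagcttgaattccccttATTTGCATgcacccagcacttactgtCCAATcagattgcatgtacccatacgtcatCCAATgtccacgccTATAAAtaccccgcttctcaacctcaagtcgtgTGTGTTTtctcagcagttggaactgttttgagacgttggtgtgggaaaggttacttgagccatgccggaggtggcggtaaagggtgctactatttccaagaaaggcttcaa
Hist1h2bh, chr13:23543395-23543694, minus strand: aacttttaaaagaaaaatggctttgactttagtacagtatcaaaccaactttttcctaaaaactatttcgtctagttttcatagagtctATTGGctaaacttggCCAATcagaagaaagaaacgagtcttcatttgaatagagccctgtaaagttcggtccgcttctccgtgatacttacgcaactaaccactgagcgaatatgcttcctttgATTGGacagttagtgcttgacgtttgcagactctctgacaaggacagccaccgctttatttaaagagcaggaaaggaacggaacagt
Hist1h4i, chr13:22041313-22041612, minus strand: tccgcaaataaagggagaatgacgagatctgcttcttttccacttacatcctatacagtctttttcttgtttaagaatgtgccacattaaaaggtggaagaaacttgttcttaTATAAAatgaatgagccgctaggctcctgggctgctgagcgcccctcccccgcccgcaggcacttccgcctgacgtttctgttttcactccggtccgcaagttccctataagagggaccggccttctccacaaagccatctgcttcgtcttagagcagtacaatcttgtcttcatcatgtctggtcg
Both H1 promoters carry AAACACA and CCAAT. The Hist1h2ba window also covers most of the stretch shared with Hist1h2aa, which starts 306 bp away in the opposite direction, and its octamer lies 164 bases before the Hist1h2ba start.

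Values are reads divided by 1 size factor per library, called scaled reads, and they are not divided by length. The libraries hold 37.1 to 42.3 M reads each (M, mega), of which 16.4 to 22.9 M lie in genes other than Rn45s, the ribosomal RNA precursor. Genes were called by limma on log2(scaled reads + 1) over 15261 genes, where the Benjamini-Hochberg adjusted p was under 0.05. The comparisons with 0 h share its 3 libraries. The median of all genes shifted between times: the log2 change at the middle of all tested genes at 3, 12, 24 and 48 h was -0.24, 0.18, -0.08 and -0.37. Most results are therefore given on the deposited scaling and after rescaling over genes, in which every library is divided by its median ratio to the other libraries (factors 0.797 to 1.37). The first asks whether a gene's signal changed, and the second whether it changed relative to most genes. In these bulk samples fewer cells in S phase and less RNA made per cell cannot be told apart. Markers named for embryonic stem cells summed to 15565 to 17300 scaled reads at 0 h and to 10213 to 10675 at 48 h, when 7 of the 8 were called lower and 1 higher. Those of fibroblasts went from 296-378 to 401-558 (5 higher and 1 lower of 7 tested). Those of trophectoderm went from 1071-1089 to 1225-1495, though 3 of the 5 tested were lower and 2 higher. Those of primitive endoderm went from 1283-1491 to 736-799 with 2 of 6 tested lower and none higher, and Lama1 held 905 of their mean of 1357 at 0 h. Of all genes, 58.4% were called lower and 7.65% higher at 48 h. After rescaling, higher and lower calls in the order above were 1 and 7, 5 and 1, 2 and 1, and 3 and 2, against 29.8% and 29.0% of all genes. Postn, Elf5 and Foxa2 were at 0 in at least 1 library, and the part of these shifts in the histone values was not tested.

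Levels per kilobase differed more between single genes than between class medians. For genes with a unit under 1 kb, the median over all 15 libraries was 3939 scaled reads per kb for H4, 3647 for H1, 2600 for H2B, 2510 for H3 and 1650 for H2A. Hist1h4m, an H4 gene, stood highest at 10598 scaled reads per kb and Hist2h2bb, an H2B gene, followed at 9265. Hist1h1t, the testis-specific linker histone, was lowest at 25.8, while Hist1h1d, a somatic linker histone, had the highest level of its class at 6114. Hist2h2ab was lowest among H2A genes at 179 and Hist3h2bb-ps, annotated as a processed pseudogene, lowest among short H2B units at 246. Near-identical copies limit how far single core histone genes can be read. The median share of a gene's 50-base words that also occur in the transcripts of another histone gene, including annotated genes outside the 63, was 62.6% for H2A, 54.1% for H3, 40.1% for H2B, 34.2% for H4 and 1.10% for H1. The highest share among H1 genes was that of Hist1h1e, 32.0%, with 23.8% of its words found in Hist1h2be. These words were taken over all annotated transcripts of a gene, which can run past its counted unit. Hist1h4m shared 89.8%, all with Hist1h4n, which is outside the 63, and Hist2h2bb shared none. No source used here says how reads that map to more than 1 place were treated.

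**Figure D1:**
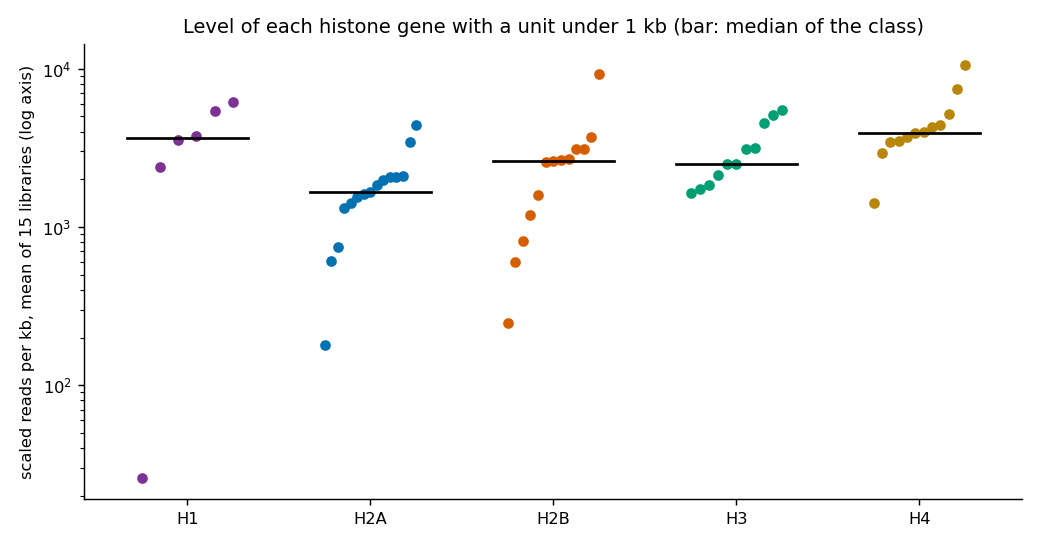
Mean scaled reads per kb over the 15 libraries (log axis) for each histone gene with a unit under 1 kb, by class, with a bar at the class median. The medians lie between 1650 (H2A) and 3939 (H4), while single genes run from 25.8 (Hist1h1t) to 10598 (Hist1h4m).

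Summed over the 63 genes, the histone signal was lowest at 3 and 48 h on the deposited scaling. The 0 h libraries summed to 94548, 93243 and 107116 scaled reads. Those at 3 h summed to 85677, 76314 and 88483, and those at 12 h to 89916, 99032 and 94093. The 24 h libraries reached 100397, 103825 and 94447, and the 48 h libraries 87980, 90618 and 80490. All libraries at 3 and 48 h lay below all at 0 h, and those at 12 and 24 h overlapped them. The means at 3, 12, 24 and 48 h were 84.9, 96.0, 101 and 87.9% of that at 0 h. After rescaling the order was different, with 99.8, 84.6, 107 and 113%, and every time overlapped 0 h. No test was run on the sums. As a share of all gene signal without Rn45s, the histone genes held 0.602, 0.536 and 0.672% in the 0 h libraries, 0.631, 0.613 and 0.602% after 3 h, 0.547, 0.476 and 0.513% after 12 h, 0.697, 0.570 and 0.653% after 24 h, and 0.684, 0.669 and 0.595% after 48 h. The 12 h libraries had the lowest mean share, 0.512%, and overlapped 0 h through 1 library.

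**Figure D2:**
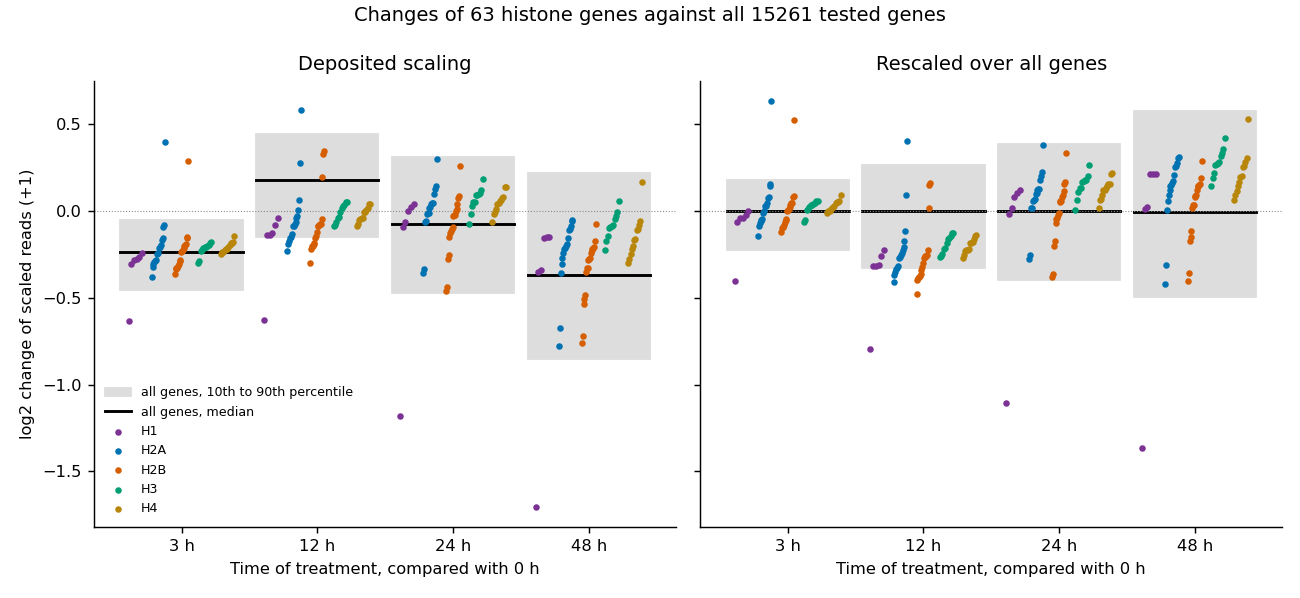
Fitted log2 changes of scaled reads + 1 against 0 h for the 63 histone genes (points, by class) at each time, on the deposited scaling (left) and after rescaling over genes (right), with the median (line) and the 10th to 90th percentile (grey) of all 15261 tested genes. The histone points lie around the line of all genes at 3 h, mostly below it at 12 h and mostly above it at 48 h, and Hist1h1t is the lowest point at every time.

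Read gene by gene on the deposited scaling, few histone genes were called before 48 h. At 3 h the median log2 change was -0.23, close to the -0.24 of all genes. Limma called 1 of 63 higher (Hist1h2aa; 0.636% of all genes were called higher) and 2 lower (Hist1h2ab and Hist1h2be; 13.5% of all genes). These 3 calls were each lost without 1 or another library. After rescaling 2 were called higher (Hist1h2aa and Hist1h2ba) and none lower, against 4.98% and 8.13% of all genes, with 2 lower at an unadjusted p under 0.05 and none by edgeR with TMM or DESeq2. The count of lower calls rests on the spread used: it was 30 on the deposited scaling when limma was fitted to the 0 and 3 h libraries alone, 11 with a replicate block and 10 without 3 h replicate 3. The 13.5% of all genes belongs to the main fit, and the shares under these settings are not given. All 3 libraries at 3 h lay below all 3 at 0 h for 38 of 63 histone genes, against 53.5% of all genes, and for all 6 H1 genes.

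At 12 h the median histone change was -0.08, below the 0.18 of all genes. On the deposited scaling 1 was called higher, Hist1h2aa, and none lower (12.9% and 2.07% of all genes), with 1 lower at an unadjusted p under 0.05 and 1 by edgeR, and 3 higher with a replicate block. After rescaling the median was -0.25, and 47 of 63 were called lower and 1 higher, against 14.9% and 15.8% of all genes. The rescaled falls covered every class: 6 of 6 H1, 10 of 16 H2A, 15 of 18 H2B, 7 of 11 H3 and 9 of 12 H4 genes. Hist1h1d, for example, gave 4908, 4864 and 5343 scaled reads in the 0 h libraries and 4673, 5013 and 4599 after 12 h, overlapping values on the deposited scaling. Its log2 change was -0.08 (limma adjusted p 0.64), and -0.26 after rescaling (limma adjusted p 0.0025). The count of 47 was 23 when 0 h replicate 3 was left out and 30 when 12 h replicate 2 was, and it was 29 by DESeq2 with its own size factors.

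From 3 h to 12 h most genes rose, and few histone genes were called. Limma called 72.9% of all genes higher on the deposited scaling and 0.197% lower, but 3 of 63 histone genes higher, all 3 of them the HIST3 genes, and none lower (none at an unadjusted p under 0.05 or by edgeR). The count of 3 was 7 with a replicate block or without 3 h replicate 3, and 9 without 12 h replicate 1. The medians were 0.42 for all genes and 0.17 for the histone genes. After rescaling 53 histone genes were called lower and none higher, against 8.83% and 13.1% of all genes. That count was 21 by DESeq2, 28 when 3 h replicate 1 was left out and 25 when 12 h replicate 2 was.

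From 12 h to 24 h the opposite was seen on the rescaled values. All genes had a median of -0.25, with 28.7% called lower and 1.53% higher, and the histone genes had a median of 0.07, with 2 called lower (Hist1h2aa and Hist1h2ba) and none higher (none at an unadjusted p under 0.05 or by edgeR). The 2 were 4 without 24 h replicate 2. After rescaling 54 of 63 were called higher and 2 lower, against 12.8% and 12.5% of all genes. These included all 11 H3 genes, all 12 H4 genes, 13 of 16 H2A, 13 of 18 H2B and 5 of 6 H1 genes, and 47 of the 54 held without each library in turn. At 24 h against 0 h, 4 were called lower and none higher (12.2% and 7.21% of all genes; 1 higher at an unadjusted p under 0.05 and none by edgeR), and after rescaling 5 lower and 13 higher (21.8% and 21.7%). The 4 were 2 when either 0 h replicate 1 or 24 h replicate 1 was left out, 1 when 24 h replicate 3 was and 7 when 24 h replicate 2 was. The 5 rescaled falls were 3 when 0 h replicate 3 was left out and 2 when 24 h replicate 2 was. The 13 ran from 2 to 35 when single libraries were left out, the extremes being 0 h replicates 2 and 3.

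At 48 h the median log2 change of the histone genes was -0.21, below 0 but above the -0.37 of all genes. Limma called 20 of 63 lower and none higher, against 58.4% and 7.65% of all genes, and no gene was higher at an unadjusted p under 0.05 or by edgeR. Fitted to the 0 and 48 h libraries alone, limma called 43 lower and 1 higher. The 58.4% and 7.65% belong to the fit of all libraries, and the shares of all genes under this narrower fit are not given. All 3 libraries lay below all 3 at 0 h for 35 of 63 histone genes, against 69.6% of all genes. After rescaling the median was 0.15, and 31 were called higher and 5 lower, against 29.8% and 29.0% of all genes. From 24 h to 48 h, 10 were called lower and none higher (40.6% and 2.4%; none higher at an unadjusted p under 0.05 or by edgeR), and after rescaling 8 higher and 3 lower (22.0% and 16.7%). The 10 falls from 24 h were 4 without 48 h replicate 1, and the 8 rescaled rises ran from 2 to 15 without single libraries. The 3 rescaled falls were 0 without 24 h replicate 1, 24 h replicate 3 or 48 h replicate 3. The 20 falls at 48 h were 9 once 0 h replicate 3 was left out. Leaving out 48 h replicate 1 gave 13 and leaving out 48 h replicate 3 gave 10. The 31 rescaled rises were 17 by DESeq2, 17 when 0 h replicate 2 was left out and 18 when 48 h replicate 1 was.

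The class medians at 48 h ran from H2B, the lowest, to H3, the highest. H2B, which pairs with H2A in the nucleosome, had the lowest median, -0.28, with 10 of 18 genes called lower. H1, the linker class, had -0.25 with 3 of 6 lower, and H2A -0.21 with 5 of 16. Without Hist1h1t the H1 median was -0.16 with 2 of 5 lower, above those of H2A and H4, and 0.21 after rescaling with 3 of 5 higher. H4 had -0.17 with 2 of 12 lower. H3, the class that carries the K9 residue, had -0.09, and none of its 11 genes was called. After rescaling the H3 median was 0.27 with 10 of 11 genes called higher, H4 0.20 with 8 of 12, H2A 0.16 with 6 higher and 2 lower, H1 0.12 with 3 higher and 1 lower, and H2B 0.08 with 4 higher and 2 lower. The background for each of these counts is that of the 48 h calls above, and differences between classes were not tested gene by gene.

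Shares of the histone signal show the same contrast and do not depend on the scaling. H2B took 23.4, 23.4 and 23.6% of the summed histone signal in the 0 h libraries, 22.6, 23.1 and 23.7% after 3 h, 22.4, 22.9 and 22.7% after 12 h, 21.7, 22.5 and 22.6% after 24 h, and 21.5, 21.9 and 22.1% after 48 h. The share of H2B was below that of every 0 h library in every library from 12 h on. H3 took 18.9, 18.8 and 18.9% in the 0 h libraries, 19.1, 18.9 and 19.2% after 3 h, 19.6, 19.3 and 19.4% after 12 h, 19.7, 19.3 and 19.7% after 24 h, and 20.1, 20.0 and 20.3% after 48 h. All later libraries were above all 0 h libraries for H3, by a margin that vanishes in rounding for 3 h replicate 2. The mean H2B share went from 23.5 to 21.8% and the mean H3 share from 18.9 to 20.1%. H4 went from 23.4 to 24.3% without overlap at 48 h, whereas H1 (17.9 to 17.6%) and H2A (16.4 to 16.2%) overlapped.

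**Figure D3:**
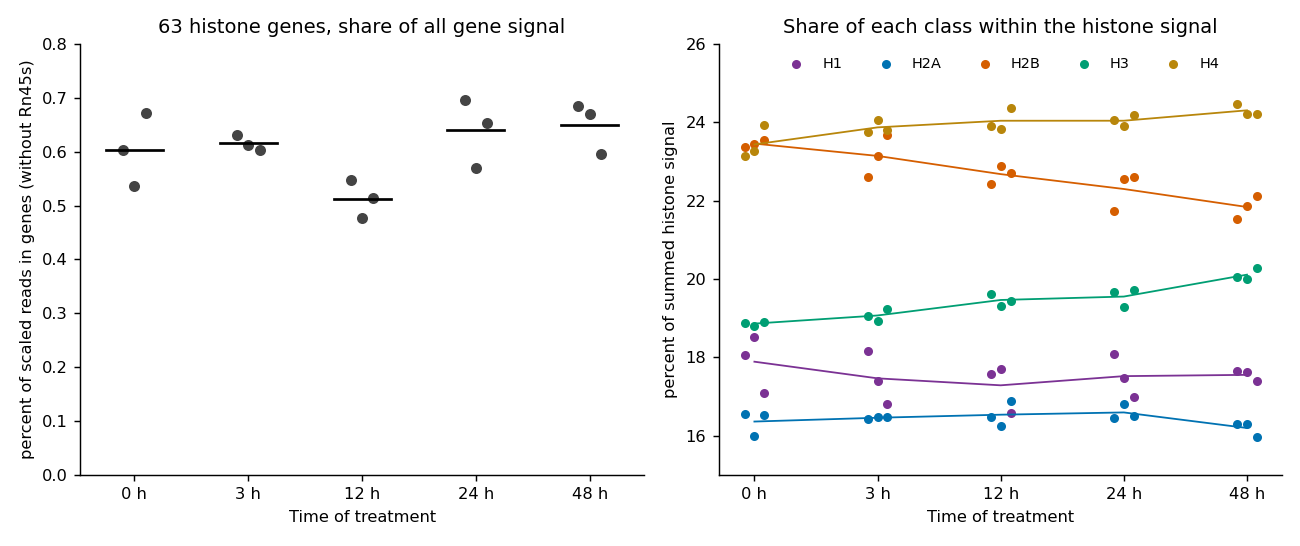
Left, the percent of all scaled reads in genes (without Rn45s) that fell in the 63 histone genes, per library (points) with the mean of 3 (bar). Right, the percent of the summed histone signal in each class, per library (points) with lines through the means; this axis starts at 15. The H2B share went from a mean of 23.5% at 0 h to 21.8% at 48 h, and the H3 share from 18.9 to 20.1%.

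By position, the 2 large stretches of HIST1 had near-equal medians and the small HIST3 cluster took another course. At 48 h the median log2 change was -0.19 in the first HIST1 stretch (5 of 20 genes lower) and -0.21 in the second (9 of 31 lower), -0.27 in HIST2 (4 of 7 lower), -0.22 in HIST3 (1 of 3 lower) and -0.28 for Hist4h4 alone, which was called lower, where 58.4% of all genes were called lower. Hist1h2al, the lone gene of the third stretch, was at -0.19 and not called. After rescaling these were 0.17, 0.15, 0.09, 0.15 and 0.09, with 0.17 for Hist1h2al. At 3 and 12 h stretches 1 and 2 had the same medians to 2 decimals, -0.24 and -0.08.

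Hist3h2a and Hist3h2ba had their highest values at 12 and 24 h. Hist3h2a, an H2A gene (chromosome 11, 58954685-58955192), gave 1549, 1541 and 1829 scaled reads in the 0 h libraries, 1541, 1446 and 1645 after 3 h, 1835, 2054 and 2038 after 12 h, 1938, 2291 and 1826 after 24 h, and 1602, 1676 and 1453 after 48 h. Hist3h2ba, an H2B gene (58948911-58949372), gave 346, 348 and 386 in the 0 h libraries, 321, 297 and 350 after 3 h, 440, 488 and 440 after 12 h, 442, 456 and 393 after 24 h, and 322, 318 and 289 after 48 h. For Hist3h2ba, every library at 12 and 24 h lay above every one at 0, 3 and 48 h. From 3 h to 12 h Hist3h2ba rose by 0.50 (SE 0.13, limma adjusted p 0.000575) and Hist3h2a by 0.36 (SE 0.12, limma adjusted p 0.00771), and both calls held without each library, whereas that of Hist3h2bb-ps (0.34) was lost without any 1 of 4. After rescaling these changes were 0.08 and -0.06 and not called, near the median of all genes. From 24 h to 48 h Hist3h2ba fell by 0.47 (SE 0.13, limma adjusted p 0.00233), and by 0.19 after rescaling, and Hist3h2bb-ps fell by 0.58 and 0.30. Each of these 2 rescaled calls was lost without any 1 of 4 libraries, 24 h replicates 1 and 3 among them. The summed HIST3 signal was 121% of 0 h at 12 h, with all libraries above 0 h, where the sum of all 63 genes was at 96.0%. All genes rose too at 12 h, with a median log2 change of 0.18, against 0.27 for the HIST3 genes. The share of all genes with every 12 h library above 0 h was not computed. After rescaling the HIST3 sum overlapped 0 h at 12 h (107%) and lay above all 0 h libraries at 24 h (128%).

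Among the H1 genes, the testis-specific variant stood apart from the somatic ones. Hist1h1t (chromosome 13, 23695811-23696545) gave 30.1, 36.6 and 28.3 scaled reads in the 0 h libraries, 20.9, 20.4 and 18.6 after 3 h, 22.8, 20.9 and 16.7 after 12 h, 9.97, 17.8 and 13.3 after 24 h, and 5.91, 9.30 and 12.99 after 48 h. Every later library lay below every 0 h library. The values at 48 h rest on 8, 12 and 17 reads, against 37, 44 and 33 at 0 h. Hist1h1t fell by 1.18 at 24 h (SE 0.27, limma adjusted p 0.000126) and fell by 1.70 at 48 h (SE 0.27, limma adjusted p 1.95e-09), and after rescaling the changes were -1.10 and -1.37. All 4 calls held without each library. None of its 50-base words occurs in another histone gene. In the authors' deposited table Hist1h1t is also the only histone gene called down, at 24 and 48 h, and the other 63 rows are listed as unchanged at every time. Among all 20541 gene rows the authors called 285 down at 24 h and 1031 at 48 h, with 19808 and 18939 unchanged.

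The 5 somatic H1 genes, which encode the linker histones of dividing cells, had changes of -0.35 to -0.15. Hist1h1b gave 3212, 3405 and 3443 scaled reads in the 0 h libraries and 2648, 2863 and 2391 after 48 h, a fall of 0.35 (SE 0.12, limma adjusted p 0.00852) that was lost without 48 h replicate 3. Hist1h1e fell by 0.34 (limma adjusted p 0.0114), a call lost without 0 h replicate 3 or 48 h replicate 3. Hist1h1a, Hist1h1c and Hist1h1d stood at -0.16, -0.15 and -0.15 and were not called. After rescaling Hist1h1b and Hist1h1e were at 0.01 and 0.02, and Hist1h1a, Hist1h1c and Hist1h1d were called higher at 0.21 each. The calls of Hist1h1c and Hist1h1d were lost without 0 h replicate 2 or 48 h replicate 1.

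Of the 20 falls at 48 h, 8 held without each library in turn, and 5 were also called lower after rescaling: Hist1h1t, Hist2h2ab, Hist2h2be, Hist1h2af and Hist1h2bh, the last pair named after their values were seen. Hist2h2ab, an H2A gene of the HIST2 cluster (chromosome 3, 96219916-96220353), gave 95.9, 91.5 and 90.9 scaled reads in the 0 h libraries and 49.5, 56.6 and 55.02 after 48 h. It fell by 0.78 (SE 0.16, limma adjusted p 1.08e-05), and by 0.42 after rescaling. Hist2h2be, the neighbouring H2B gene (96221072-96223738), gave 127, 136 and 102 in the 0 h libraries and 68.7, 83.7 and 61.9 after 48 h, a fall of 0.76 (SE 0.16, limma adjusted p 6.07e-06), and of 0.40 after rescaling. The rescaled call of Hist2h2be was lost without 0 h replicate 1, 0 h replicate 2 or 48 h replicate 3. Neither gene's libraries at 48 h overlapped those at 0 h. Hist2h2be is known as a histone gene that can also make polyadenylated mRNA, and it was among the genes whose transcript extended without the stem-loop.

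Hist1h2af and Hist1h2bh are near neighbours in the second HIST1 stretch and are much more abundant. Hist1h2bh (chromosome 13, 23542923-23543444) gave 974, 969 and 1100 scaled reads in the 0 h libraries, 832, 722 and 865 after 3 h, 819, 937 and 853 after 12 h, 829, 906 and 772 after 24 h, and 619, 648 and 576 after 48 h. Hist1h2af (23533911-23534378) gave 802, 755 and 906 in the 0 h libraries and 515, 528 and 497 after 48 h. Hist1h2bh fell by 0.72 (SE 0.13, limma adjusted p 9.69e-08) and Hist1h2af by 0.67 (SE 0.13, limma adjusted p 8.45e-07), and after rescaling by 0.36 and 0.31. These calls held without each library under both scalings. Hist1h2bh shares 14.0% of its 1630 annotated 50-base words with other histone genes, and Hist1h2af 79.7% of its 350, all of it with Hist1h2ad. The words of Hist1h2bh run well past its counted unit, so these shares cannot be compared. The share within its unit was not computed. The value of Hist1h2af alone is uncertain. The neighbour that starts 608 bp from Hist1h2bh in the opposite direction, the H3 gene Hist1h3f, was at -0.08 on the deposited scaling and at 0.28 with a call after rescaling.

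The other 3 falls that held without each library, also named after their values were seen except Hist3h2bb-ps, were all H2B: Hist1h2bf (-0.54), Hist3h2bb-ps (-0.51) and Hist1h2bm (-0.48). After rescaling they were at -0.18, -0.15 and -0.12 and not called. Hist1h4j had the larger of the 2 called H4 falls, 0.30 (SE 0.12, limma adjusted p 0.0259), a call lost without 0 h replicate 3, 48 h replicate 1 or 48 h replicate 3. Hist2h2bb, the most abundant H2B gene with a short unit, gave 4697, 4712 and 5428 scaled reads in the 0 h libraries and 4113, 4245 and 3891 after 48 h, a fall of 0.27 (SE 0.12, limma adjusted p 0.0401) that was lost without any 1 of the 6 libraries.

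At the other end, the most abundant H3 and H4 genes of HIST1 had changes near 0 on the deposited scaling. Hist1h4m (chromosome 13, 21811746-21812150) gave 4084, 4113 and 4847 scaled reads in the 0 h libraries and 4244, 4279 and 3766 after 48 h, which overlap. Its log2 change was -0.08, as was that of Hist1h3f, and Hist1h3e was at -0.09, Hist1h3c at -0.01, Hist1h4d at -0.06 and Hist1h4a at -0.11, none of them called. After rescaling these 6 were called higher, at 0.28, 0.28, 0.27, 0.36, 0.30 and 0.26 in that order. Hist1h4i, named after its values were seen, gave 1234, 1362 and 1494 in the 0 h libraries and 1593, 1652 and 1336 after 48 h. Its change of 0.16 was the highest of the 63 and was not called on the deposited scaling, and it was 0.52 after rescaling (limma adjusted p 2.3e-07). Hist1h4i shares 28.9% of its 678 annotated 50-base words with other histone genes, and the share within its counted unit was not computed. Hist1h4m shares 89.8%, all with Hist1h4n, so the value of Hist1h4m alone is uncertain.

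**Figure D4:**
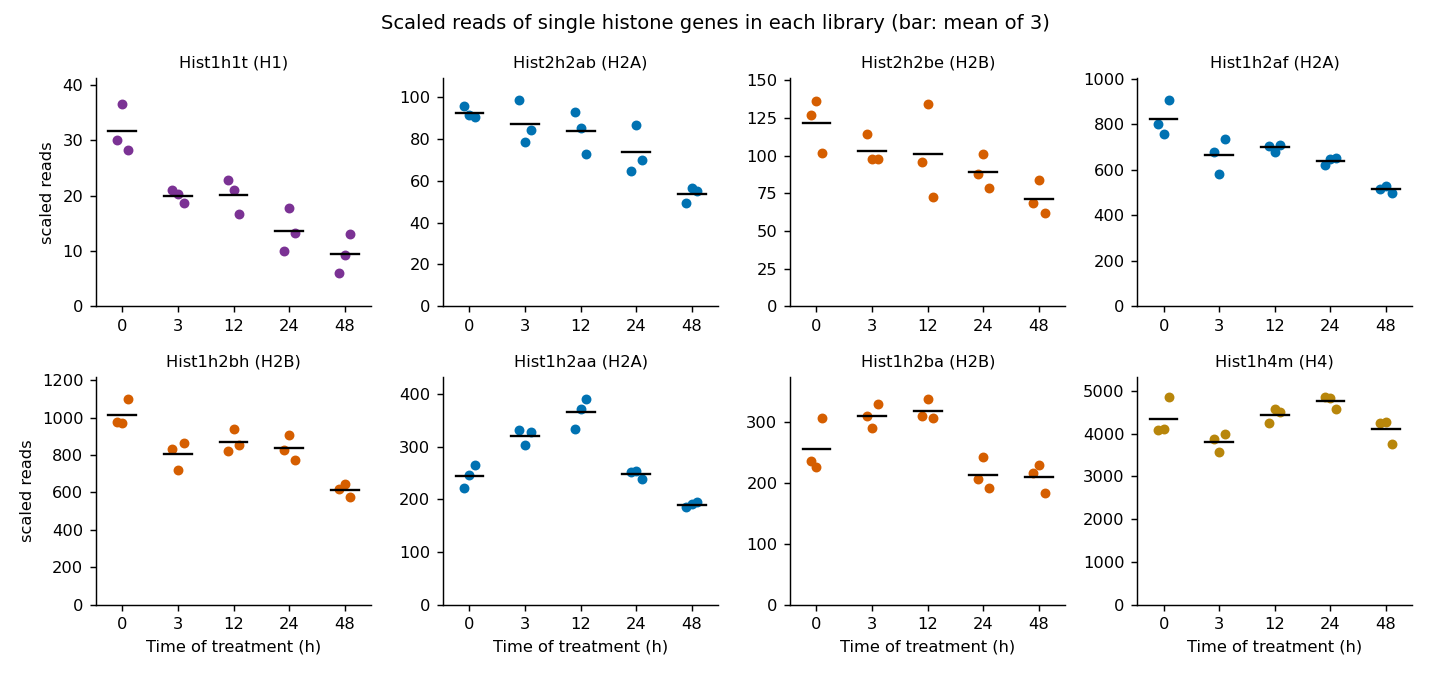
Scaled reads per library (points) with the mean of 3 libraries (bar) for 8 histone genes across the 5 times; each axis starts at 0. Hist1h1t, Hist2h2ab, Hist2h2be, Hist1h2af and Hist1h2bh are lowest at 48 h, Hist1h2aa and Hist1h2ba are highest at 3 and 12 h, and Hist1h4m is at a like level at 0 and 48 h.

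Hist1h2aa and Hist1h2ba had positive changes at 3 and 12 h, when the histone median was below 0, and were named for this after their values were seen. They are the testis-type H2A and H2B genes at the far end of the second HIST1 stretch. Hist1h2aa (chromosome 13, 23934462-23934913) gave 222, 246 and 266 scaled reads in the 0 h libraries, 331, 303 and 328 after 3 h, 334, 372 and 390 after 12 h, 252, 254 and 238 after 24 h, and 185, 191 and 194 after 48 h. Hist1h2ba (23933725-23934156) gave 236, 225 and 305 in the 0 h libraries, 309, 290 and 328 after 3 h, 309, 338 and 306 after 12 h, 206, 241 and 192 after 24 h, and 216, 229 and 183 after 48 h. Hist1h2aa was above all 0 h libraries at 3 and 12 h and below them at 48 h, while Hist1h2ba overlapped 0 h at 3 h.

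Hist1h2aa rose by 0.58 at 12 h (SE 0.13, limma adjusted p 0.000376), and by 0.40 after rescaling, with both calls kept without each library. Its 3 h rise of 0.39 (limma adjusted p 0.0329) was lost without 5 of the 6 single libraries, but the rescaled rise of 0.63 (limma adjusted p 5e-07) held without each. Hist1h2ba was at 0.28 at 3 h and 0.33 at 12 h, neither called. After rescaling its 3 h rise of 0.52 was called (limma adjusted p 0.000158) and held without each library. From 12 h to 24 h Hist1h2aa fell by 0.56 (limma adjusted p 0.00106) and Hist1h2ba by 0.58 (limma adjusted p 0.000611), and by 0.30 and 0.32 after rescaling, where each call was lost without 1 library. They are the pair that fell while 54 histone genes were called higher on that scale. Hist1h2aa shares 2.35% of its 50-base words with other histone genes and Hist1h2ba 38.2%.

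H2A and H2B genes often sit head to head on a shared promoter, which allows each H2B gene to be set beside its own H2A partner. There are 12 such pairs here, with starts 168 to 306 bp apart. At 48 h the H2B gene had the lower change in 9 of the 12, with a median difference of -0.06 (H2B minus H2A, log2) and a range from -0.49 to 0.17. Among these 9 are Hist3h2bb-ps, a pseudogene, and the long units Hist2h2be, Hist1h2bp, Hist1h2bq and Hist1h2bc (1726 to 8282 bp). These long units hold other sequence besides the histone gene. The rest of the 9 are Hist1h2bl, Hist1h2bk, Hist1h2bj and Hist1h2bf, with units under 1 kb. The 3 widest gaps were Hist2h2ac with Hist2h2be (-0.28 and -0.76), Hist3h2a with Hist3h2bb-ps (-0.05 and -0.51) and Hist1h2ad with Hist1h2bf (-0.11 and -0.54). In the pair Hist1h2aa and Hist1h2ba the changes were -0.36 and -0.28, and in Hist1h2ak and Hist1h2bn they were -0.25 and -0.08. The difference between partners was not tested. H2A and H2B genes outside these pairs, 10 in number, had a median of -0.34 at 48 h with 8 called lower, against 58.4% of all genes, and the paired ones -0.18 (H2A, 2 of 12 lower) and -0.26 (H2B, 5 of 12 lower).

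**Figure D5:**
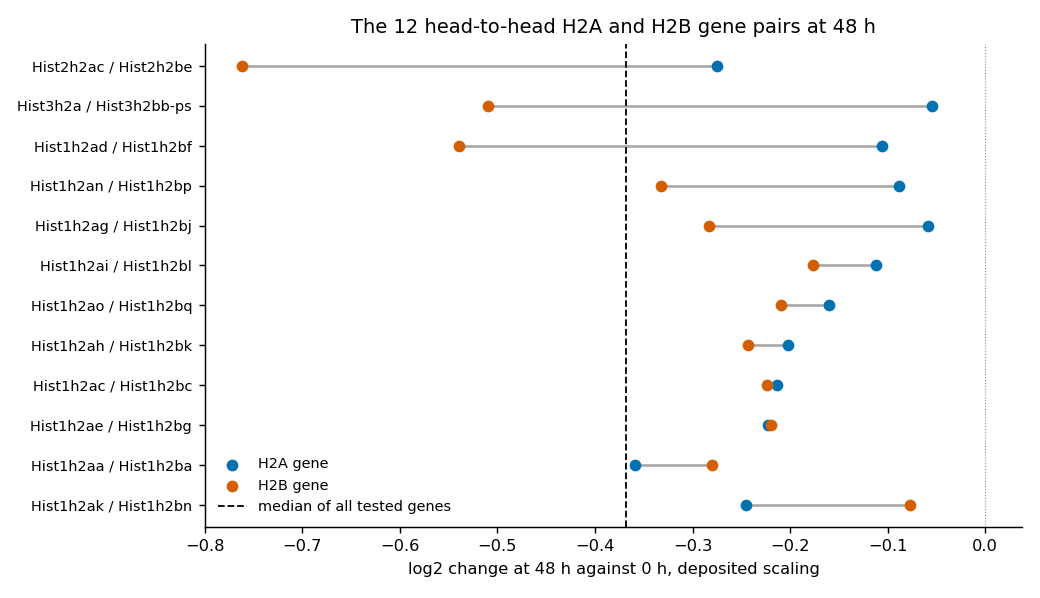
Log2 change at 48 h against 0 h on the deposited scaling for the H2A (blue) and H2B (orange) gene of each of the 12 head-to-head pairs, joined by a line, with the median of all 15261 tested genes dashed at -0.37. The H2B gene lies to the left in 9 pairs, by up to 0.49.

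H2A and H2B genes with and without the promoter octamer had near-equal medians. H2A and H2B genes with ATTTGCAT in the promoter had a median change of -0.27 at 48 h (13 genes, 6 called lower) and those without it -0.25 (15 genes, 7 called lower), against 58.4% of all genes called lower. The 5 H2B units of at least 1 kb, from Hist1h2bp at 1726 bp to Hist1h2be at 37455 bp, had a median of -0.33 and the 13 shorter ones -0.28. A long unit holds sequence besides the histone gene itself.

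Non-coding units overlap some of these genes on the opposite strand, and no source used here gives the strand setting of the counting. There were 18 such units, across 22 histone genes. At 48 h 1 was called higher and 4 lower, against 29.3% and 39.4% of the 15730 tested non-coding units, with a median change of -0.30. After rescaling the median was 0.05, and 1 was higher and none lower by limma, against 35.7% and 22.0%, with 0 lower at an unadjusted p under 0.05 and no other tool run on these units. The 1 higher unit lies opposite Hist1h2al (chromosome 13, 51202401-51206601). This unit went from 75.8 ± 4.30 to 119 ± 8.89 scaled reads (SD, n = 3), a log2 rise of 0.64 (limma adjusted p 0.000693). After rescaling the change of the unit was 1.00 with a call. Hist1h2al itself stood at -0.19 on the deposited scaling. The unit opposite Hist1h2af fell by 0.41 (limma adjusted p 0.0111), beside the fall of 0.67 in Hist1h2af, but was at -0.05 with no call after rescaling.

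Most genes that serve histone gene expression fell at 48 h. Of 30 listed factors of the histone locus body and of histone mRNA 3′ end formation, 24 were called lower at 48 h and none higher, with a median of -0.45, against 58.4% and -0.37 for all genes. After rescaling 12 were lower and 7 higher, with a median of -0.09, against 29.0% and 29.8% of all genes. Npat, the histone locus body organiser, went from 1757 ± 150 to 1462 ± 76.4 scaled reads (SD, n = 3), a change of -0.26 that was not called, and 0.10 with a call after rescaling. Slbp, the stem-loop binding protein, went from 1300 ± 18.0 to 1053 ± 47.1 and fell by 0.31 (limma adjusted p 0.0246), a call lost without 0 h replicate 2 or 3 or 48 h replicate 1 or 3. Hinfp, an H4 promoter factor, fell by 0.50 (limma adjusted p 0.000591), and stood at -0.13 with no call after rescaling. Casp8ap2, another locus body protein, fell by 0.32 and Lsm11, of the U7 particle, was at -0.24 with no call. The call of Casp8ap2 was lost without 0 h replicate 2 or 48 h replicate 1 or 2. Lsm11 rose by 0.40 at 12 h (limma adjusted p 0.0186), a call lost without 3 single libraries, and by 0.22 after rescaling. The factors with the smallest adjusted p at 48 h were Srrt (-1.04), Ccne1, the cyclin E1 gene (-0.76), and Cpsf3l (-0.76), and all 3 also fell after rescaling (-0.68, -0.40 and -0.40).

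The G1/S and replication genes, which share the S phase programme, fell in 52 of 59 cases at 48 h with a median of -0.44, where 58.4% of all genes fell and 7.65% rose. After rescaling 28 fell and 6 rose, against 29.0% and 29.8% of all genes, with a median of -0.08, where the histone genes had 0.15. At 12 h, when the histone genes stood at -0.08, the median of this list was 0.16, near the 0.18 of all genes. Of this list 3 were called higher and none lower at 12 h, against 12.9% and 2.07% of all genes. G2/M genes had 30 of 44 lower and 1 higher at 48 h with a median of -0.32, and histone chaperones 19 of 24 lower with -0.43. Of 20 p53 targets 6 were lower and 4 higher with a median of -0.09. After rescaling 15 G2/M genes were higher and 10 lower (median 0.04), 13 p53 targets higher and 3 lower (median 0.27), and 5 chaperones higher and 10 lower (median -0.06). Differences between these lists and the histone genes were not tested.

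Replication-independent histone genes, which supply histones outside S phase too, gave 6 lower and none higher among 11 tested of 18 listed at 48 h, with a median of -0.31, against 58.4% and 7.65% of all genes. After rescaling 4 were higher and 1 lower, with a median of 0.05, against 29.8% and 29.0%. H2afz, the H2A.Z gene, went from 1044 ± 64.5 to 709 ± 58.5 scaled reads (SD, n = 3), a fall of 0.56 (SE 0.13, limma adjusted p 3.93e-05), and of 0.20 after rescaling. H1f0 fell by 0.49 and H2afj by 0.39, and after rescaling they were at -0.13 and -0.03 with no call. At 12 h this list had a median of 0.17, near that of all genes, whereas the replication-dependent genes had -0.08. Of the list 3 were called higher and none lower at 12 h, against 12.9% and 2.07% of all genes.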

How the data were processed

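TT-seq values were analysed for 15 libraries (5 times, 3 libraries each, 30 sequencing runs, with the 2 runs of a library counted as 1). Per the submitters' processing notes the tools were STAR 2.5.2a, DESeq2 and deepTools, with mm10. No source used here names the counter, its strand and multi-mapping settings or its annotation. The authors' deposited signal equals the reads of a unit over 1 size factor for the whole library. The values are whole multiples of 1 step per library (tolerance 0.05), from which reads were recovered for the count tests. The file does not show if these factors come from the yeast spike-in.

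Genes with a mean of at least 10 were fitted with limma 3.58.1 (R 4.3.3; intensity trend, all 15 libraries, 7 contrasts, two-sided) on log2(value + 1), with Benjamini-Hochberg adjustment over all tested genes at 0.05. Rescaling divides each library by its median of ratios over tested genes. Alternatives were edgeR 4.0.16, DESeq2 1.42.0, other pseudocounts and minimums, no trend, fewer groups, a replicate block and leaving out libraries. The scripts were tested on simulated data. Genes named were all H1, HIST2, HIST3 and HIST4 genes, the 3 highest of each core class in HIST1 and the largest called rise and fall of each class at 48 h, and, from each other list, at most 3 with the smallest adjusted p at 48 h besides Npat, Slbp, Hinfp, Casp8ap2 and Lsm11. Others were chosen after their values were seen. The members and lists were chosen with earlier results of these data known.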

Additional observations from a re-analysis of the deposited data

How the results depend on the processing

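Rescaling over genes moved most counts of called histone genes, and no cause was tested. After it, higher and lower calls at 3, 12, 24 and 48 h numbered 2 and 0, 1 and 47, 13 and 5, and 31 and 5, and in the steps from 3, 12 and 24 h to the next time 0 and 53, 54 and 2, and 8 and 3. In the same order edgeR with TMM gave 2 and 0, 1 and 48, 15 and 5, 28 and 6, 0 and 53, 54 and 2, and 6 and 3. DESeq2 gave 2 and 0, 1 and 29, 2 and 4, 17 and 5, 0 and 21, 51 and 2, and 2 and 0. On the deposited scaling, limma on only the groups compared gave 2 higher and 30 lower at 3 h, 1 higher and 43 lower at 48 h, and 1 lower from 12 to 24 h. A minimum mean of 50 gave 4 lower at 3 h, no trend gave 0, and edgeR gave 4 at 3 h and 1 at 12 h. Apart from the main fit and limma after rescaling, shares of all genes under these and the following settings are not given.

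Deviations from the mean of each time, correlated over genes between libraries of the same replicate number, gave -0.04 to 0.08. Of 15 libraries 8 correlated best with their own number. Such correlations leave out shifts common to a whole library, so they cannot decide whether the numbers pair the libraries. The rescaling factor of replicate 2 was the highest of its time at 0, 12, 24 and 48 h (1.13, 1.37, 1.18 and 0.858) and the lowest at 3 h (0.840). With a replicate block, 11 genes were lower at 3 h, 3 higher at 12 h, 1 higher at 24 h and 7 higher from 3 to 12 h. The block with rescaling, added after seeing the data as was leaving out libraries with rescaling, gave 2 and 0, 1 and 49, 18 and 5, 37 and 6, 0 and 58, 55 and 2, and 12 and 3 in the order above. For named genes the block left 37 results on their side of the threshold and brought 3 past it.

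Without single libraries on the deposited scaling, higher calls ran from 0 to 1 at 3 h, 1 to 4 at 12 h and 2 to 9 from 3 to 12 h, and were 0 elsewhere. Lower calls ran from 0 to 10 at 3 h, 0 to 1 at 12 h, 1 to 7 at 24 h, 9 to 19 at 48 h, 2 to 4 from 12 to 24 h and 4 to 15 from 24 to 48 h, and were 0 from 3 to 12 h. Among named-gene results without a library, 198 kept their direction and side, 33 lost and 5 gained a call, and 4 turned. These were at 48 h, Hist3h2a with a range of -0.099 to 0.027 and Hist1h3c with a range of -0.064 to 0.068, positive without 0 h replicate 3 (0.027 and 0.068) and 48 h replicate 3 (0.0031 and 0.058).

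Rescaled sums at 3, 12, 24 and 48 h were 99.8, 84.6, 107 and 113% of 0 h for all histone genes, 98.4, 81.8, 102 and 105% for H2B, 101, 87.4, 111 and 120.3% for H3, and 102, 86.7, 109.7 and 117% for H4. At 3, 12 and 48 h they were 97.8, 82.0 and 111% for H1, 97.8, 82.1 and 111% for H1 without Hist1h1t, and 100.2, 85.5 and 112% for H2A. Over all 4 times HIST1 stretch 1 had 99.8, 84.5, 108 and 114%, stretch 2 had 98.9, 83.4, 106 and 113%, stretch 3 had 96.1, 82.9, 113 and 113%, and HIST2 had 102, 86.2, 106 and 109%. HIST3 had 109, 107, 128 and 119%, and at 3, 12 and 48 h HIST4 had 103, 89.3 and 106%.

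The sign at 48 h turned after rescaling for 26 named genes, to log2 changes of 0.012 (Hist1h1b), 0.023 (Hist1h1e), 0.21 (Hist1h1a, Hist1h1c, Hist1h1d), 0.15 (Hist3h2ba, Hist1h2bq), 0.31 (Hist3h2a), 0.088 (Hist2h2ac), 0.089 (Hist2h2bb), 0.087 (Hist4h4), 0.19 (Hist2h3c1), 0.14 (Hist2h4, Hist1h2bc, Hist1h2bg), 0.22 (Hist2h3b), 0.20 (Hist1h2ao), 0.17 (Hist1h2al), 0.12 (Hist1h2ak), 0.27 (Hist1h3e), 0.36 (Hist1h3c), 0.28 (Hist1h3f, Hist1h4m), 0.30 (Hist1h4d), 0.26 (Hist1h4a) and 0.063 (Hist1h4j). Hist1h1t at 48 h (8 to 17 reads) is limited by depth, and shared sequence limits single core histone genes. Among the H1 genes Hist1h1e also shares sequence over its annotated transcripts (32.0% of its words).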
